A study of Mus musculus with 6 samples.

Results

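Prostaglandins are lipids made from arachidonic acid that act on nearby cells. The genes described here are 10 that make, break down or sense them, chosen by name: the cyclooxygenases Ptgs1 and Ptgs2, the terminal synthases Ptges, Ptgis and Ptgds, the degrading enzyme Hpgd, and the receptors Ptger2, Ptger3, Ptger4 and Ptgfr. These genes were chosen with earlier results of these data known, so counts of them called are not an independent test of the set. All 10 were among the 33697 genes counted. Their UMIs (molecular tags that each mark 1 captured transcript) were read in tdTomato+ cells sorted from the intestinal lamina propria of Flare-TSLP mice, C57BL/6 animals that carry a tdTomato reporter in the Tslp locus. The droplet libraries numbered 6, of which 2 came from the proximal small intestine (labelled jejunum), 2 from the distal small intestine (labelled ileum), 1 was of cecum and 1 of large intestine, so the last 2 regions, called the large bowel here, had 1 library each. The reporter shows where the Tslp locus is or was active and the sort kept reporter-positive cells, so the cells do not stand for the whole lamina propria. The study also removed contaminant clusters with few tdTomato+ cells, which was not done here. Its flow cytometry found few reporter-positive cells with the leukocyte marker, and these were endothelial. Myeloid, T cell or ILC and B or plasma cell classes may therefore hold reporter-negative cells, and reporter transcript per class was not tested. Tslp itself was low, at 0.73 to 2.73 CPM in the fibroblasts of the 6 libraries.

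Each library held 3 hashtags (barcoded antibodies used to multiplex samples). The study's methods describe pooled experiments on young adult mice of both sexes and several biological samples of each small intestinal tissue, and the sources used here do not pair a hashtag with a mouse or give the age or sex behind 1 library. The libraries were therefore the samples, and p-values measure the spread between libraries, which may be technical. The 4 libraries labelled replicate 1, cecum or large intestine used 1 set of hashtags and the 2 labelled replicate 2 another. After the cell filters and doublet removal 11174 to 19073 cells per library remained, with a median of 6606.5 to 9233 UMIs, and 38 to 118 cell barcodes were shared between any pair of libraries. Marker genes that include none of the 10 placed 89579 cells (95.7%) in a lineage, among them 69982 fibroblasts, 15438 lymphatic endothelial cells (LECs), 1303 blood endothelial cells, 911 smooth muscle cells or myofibroblasts and 315 pericytes. Class names stand for cells that passed such a gate and resemble the named type. Among the fibroblasts the gate marked 25684 trophocytes (CD34+ cells that lie around crypts), 7270 subepithelial fibroblasts, 1966 telocytes, 7421 Adamdec1 fibroblasts and 5969 universal fibroblasts, and left 22.6 to 46.5% of the fibroblasts of a library without a subset. Every class led in its own marker list except the subepithelial fibroblasts, whose list had a median of 3198 CPM there and 3749 CPM in the telocytes. Levels are in CPM (counts scaled to the usual common total, here the UMIs of that class in that library), for sums of at least 50 cells. They count 3′ ends and were not compared between genes.

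In the pathway, Ptgs1 and Ptgs2 turn arachidonic acid into prostaglandin H2. Ptges, Ptgis and Ptgds then form prostaglandin E2, prostacyclin and prostaglandin D2, Hpgd oxidizes prostaglandins to inactive products, and Ptger2, Ptger3, Ptger4 and Ptgfr encode the EP2, EP3, EP4 and FP receptors. In the intestine, stromal prostaglandin E2 is known for its effects on the epithelium, on smooth muscle tone and on blood flow.

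**Figure D1:**
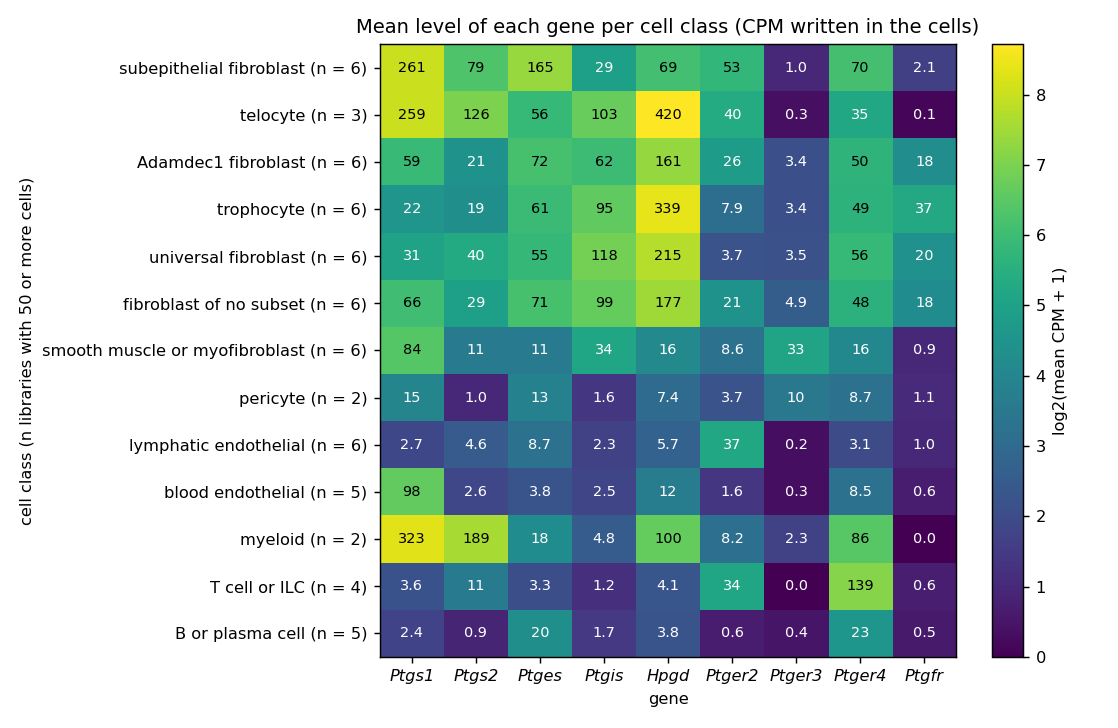
Mean level of 9 of the 10 genes (columns) in 13 cell classes (rows), in CPM as written in each cell and with the colour on a log2(CPM + 1) scale; n is the number of libraries with at least 50 cells of the class. Ptgds, with 4 UMIs in all, is not drawn. The synthesis genes drawn and Hpgd are lower in lymphatic endothelial cells, where Ptger2 has 37 CPM, than in each fibroblast class. By mean level Ptgs1 and Ptgs2 are highest in myeloid cells (323 and 189 CPM), measured in 2 small intestinal libraries. Their ranges overlap those of subepithelial fibroblasts, which reach 336 and 255 CPM over both bowels. Ptgs1 is lower in trophocytes (22 CPM) and universal fibroblasts (31 CPM) than in blood endothelial cells (98 CPM).

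LECs and fibroblasts differed in nearly the whole set. Of the 9 genes tested, 0 were higher and 8 were lower in LECs (edgeR, 6 libraries), where 67.8% of all genes tested were called, 31.9% higher and 35.9% lower. The median of the 9 log2 fold changes was -3.95, against -0.05 over all genes. Hpgd was 41.0-fold lower (log2 -5.36 ± 0.11, SE, adjusted p = 3.14e-08), Ptgis 38.1-fold, Ptgfr 33.1-fold, Ptgs1 26.2-fold and Ptger4 15.4-fold lower. Ptges (8.19-fold), Ptger3 (5.63-fold) and Ptgs2 (4.49-fold) were lower as well. The LEC levels of Hpgd (3.53 to 8.20 CPM), Ptgis (1.10 to 3.20) and Ptger4 (2.35 to 4.44) lay below the free RNA (89.2 to 240 CPM, 41.0 to 118 and 30.8 to 53.8), so the sizes depend on background. Over 16 alternatives, each of which called these genes, the log2 change ran from -16.5 to -4.79 for Hpgd, from -15.0 to -4.61 for Ptgis, from -14.8 to -3.00 for Ptgs1, from -10.7 to -4.50 for Ptgfr and from -8.33 to -3.36 for Ptger4, with the low end at 10% free RNA subtracted. Ptger2 was the gene of the 9 that was not lower, at a log2 change of 0.88 ± 0.39 (adjusted p = 0.0746), and in the 4 small intestinal libraries alone it was higher in LECs by 1.42 ± 0.12 (adjusted p = 5.87e-05). Over 16 alternatives its change ran from 0.61 to 1.42, with an adjusted p of up to 0.292.

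Ptgs1 (chr2:36120438-36142287, plus strand, build GRCm39 here and below) encodes the constitutive cyclooxygenase. Its level in subepithelial fibroblasts was 264 and 225 CPM in the proximal libraries 1 and 2, 227 and 225 in the distal libraries 1 and 2, 286 (cecum) and 336 (large intestine). In trophocytes of the same libraries, in that order, it was 19.0, 20.8, 21.7, 27.5, 18.5 and 25.2 CPM. The classes did not overlap in any library, and subepithelial fibroblasts exceeded trophocytes 9.94-fold (log2 3.31 ± 0.13, adjusted p = 4.11e-06). Telocytes had 300, 285 and 191 CPM in the 3 libraries that held enough of them (proximal 1, cecum and large intestine), 10.4-fold above trophocytes (log2 3.38 ± 0.26, adjusted p = 7.50e-04). Adamdec1 fibroblasts lay between these classes at 44.0 to 86.4 CPM. Outside the fibroblasts, blood endothelial cells held 87.7 to 128 CPM in 5 libraries and LECs 1.65 to 4.44 CPM in 6, a 43.5-fold difference (log2 5.44 ± 0.18, adjusted p = 2.12e-08). A UMI of Ptgs1 was seen in 31.5 to 36.2% of blood endothelial cells of the small intestine and in 1.13 to 1.71% of LECs, at median depths of 5200.5 to 6420 and 5528 to 6741 UMIs. The free RNA of these libraries carried Ptgs1 at 38.4 to 122 CPM. Smooth muscle cells or myofibroblasts had 56.8 to 112 CPM, which did not pass the test against fibroblasts over 6 libraries (log2 0.20 ± 0.28, adjusted p = 0.627) and was higher in the 4 small intestinal ones (0.67 ± 0.13, adjusted p = 3.15e-04). The class order ran from myeloid cells (323 ± 3.95 CPM, SD, n = 2) over subepithelial fibroblasts (261 ± 44.6, n = 6) and telocytes (259 ± 59.3, n = 3), each overlapping the next in range, to blood endothelial cells (98.3 ± 16.7, n = 5), whose range stayed below that of the telocytes.

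Ptgs2 (chr1:149975194-149983978, plus strand) encodes the inducible cyclooxygenase. Its promoter is known for a cAMP response element that overlaps an E-box, and this stretch of the RefSeq promoter of mouse Ptgs2 (assembly GRCm38.p6, chr1:150100033-150100062, plus strand) is shown for that reason, with the overlapping element and E-box in capitals.
Ptgs2: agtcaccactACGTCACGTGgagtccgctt
The capitals begin 13 bases after the start in that table. Searched on both strands, the element's core TGACGT stood in 7.51% and the E-box CACGTG in 7.15% of 32851 promoters that run from 250 bases before to 50 bases after a start, and the overlapping pair stood in 32 of them (0.0974%). Of the 9 genes of the set with a promoter in the table, Ptgs2 was the 1 with either motif, which describes letters and not binding.

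The level of Ptgs2 in subepithelial fibroblasts was 14.3, 11.7, 16.7 and 24.0 CPM in the proximal libraries 1 and 2 and the distal libraries 1 and 2, 152 CPM (cecum) and 255 CPM (large intestine). The 2 large bowel libraries stood above all 4 small intestinal ones, and so did every hashtag within them, at 105 to 326 CPM against 8.0 to 30.9 CPM. In trophocytes it was 18.0, 13.9, 17.1, 14.8, 34.4 and 17.8 CPM in the same order, so there the large intestine lay within the small intestinal range. Over 6 libraries subepithelial fibroblasts and trophocytes did not pass the test (log2 0.68 ± 0.60, adjusted p = 0.375), while the difference between them was larger in the large bowel than in the small intestine by a log2 change of 3.02 ± 0.51 (adjusted p = 0.0121). Telocytes held 88.6, 191 and 98.1 CPM in proximal 1, cecum and large intestine, 4.55-fold above trophocytes (log2 2.19 ± 0.15, adjusted p = 5.83e-04). Universal fibroblasts, which sit around vessels and in the submucosa, held 25.9, 78.7, 20.1, 25.8, 60.5 and 27.0 CPM and exceeded trophocytes 1.96-fold (log2 0.97 ± 0.26, adjusted p = 0.0266). That call was lost without distal replicate 2 (log2 1.00, adjusted p = 0.0540). These classes shared clusters, since cluster 3 held 68.7% of the universal fibroblasts and 55.3% of the trophocytes of the large bowel, and 19.8% of the small intestinal universal fibroblasts lay in cluster 13, which has the trophocyte marker Grem1 among its leading genes. Myeloid cells had 168 and 210 CPM in the 2 libraries with enough of them. LECs had 1.64 to 7.18 CPM, below the 15.3 to 100.1 CPM of the free RNA. Trophocytes also lay below the free RNA of their own library throughout. Subepithelial fibroblasts did so in both proximal libraries and distal 1, so the sizes against trophocytes depend on background.

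Ptgs2 is switched on by many of the stimuli that induce immediate early genes, so a list of 12 immediate early and heat shock genes is given beside it. The list moved the same way as Ptgs2 in some comparisons and the other way in others. Summed over the list, subepithelial fibroblasts had 866 to 1778 CPM in the small intestine and 9548 to 13378 CPM in the large bowel, trophocytes 9392 to 11961 and 13500 to 31348 CPM. In the comparison of the 2 bowels for subepithelial fibroblasts against trophocytes, 11 of the 12 were higher and 0 lower, where 8.22% of all genes were higher. In subepithelial fibroblasts against trophocytes over all libraries 12 of 12 were lower, where 25.9% of all genes were. Of the large bowel libraries the cecum had the larger sum in subepithelial fibroblasts and the smaller Ptgs2. In telocytes 11 of the 12 were lower than in trophocytes (11.1% of all genes) while Ptgs2 was higher. The part of these genes in the Ptgs2 result was not tested.

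Ptges (chr2:30779483-30820196, minus strand) encodes the inducible synthase of prostaglandin E2. In subepithelial fibroblasts it was at 200, 156, 198, 175, 122 and 140 CPM in proximal 1 and 2, distal 1 and 2, cecum and large intestine. In trophocytes it was at 63.2, 70.2, 56.4, 62.4, 66.8 and 46.4 CPM. Every library showed the higher level in subepithelial fibroblasts, by 2.30-fold in the fit (log2 1.20 ± 0.13, adjusted p = 2.67e-04), and their range did not overlap that of the next class, the Adamdec1 fibroblasts, at 59.4 to 88.4 CPM. LECs held 7.54, 13.9, 8.67, 15.8, 2.46 and 3.55 CPM and blood endothelial cells 1.59 to 4.58, which was 2.30-fold lower than LECs (log2 -1.20 ± 0.22, adjusted p = 0.00137). Both lay under the free RNA, at 51.7 to 88.9 CPM. Plasma and B cells had 12.3 to 26.2 CPM.

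Ptgis (chr2:167033725-167083018, minus strand), the prostacyclin synthase, was lower in subepithelial fibroblasts than in trophocytes, the reverse of Ptges. Its level in universal fibroblasts was 89.2, 82.8, 96.8, 105, 173 and 164 CPM and in trophocytes 76.8, 70.3, 91.9, 74.0, 148 and 106 CPM, in the library order above. Subepithelial fibroblasts held 28.3, 47.8, 29.0, 29.4, 27.3 and 14.9 CPM, below trophocytes in each library and 3.81-fold lower in the fit (log2 -1.93 ± 0.28, adjusted p = 0.00110). Universal fibroblasts exceeded trophocytes by 1.25-fold (log2 0.32 ± 0.07, adjusted p = 0.0111). Higher levels still lay in 2 clusters, mostly of fibroblasts without a subset, with Ptn among their leading genes, with 385 ± 49.7 CPM (SD, n = 4 small intestinal libraries) in cluster 7 and 256 and 354 CPM in the 2 large bowel libraries of cluster 6. The annotated genes 1110018N20Rik and Gm14291 overlap Ptgis on the opposite strand, and whether strand was used in counting is not given in the sources used here. Ptgds (chr2:25352795-25362601, minus strand) was hardly detected, with 4 UMIs among 761466625 in the gated cells. No comparison tested the gene.

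Hpgd (chr8:56747543-56774082, plus strand) encodes the dehydrogenase that starts prostaglandin breakdown. Trophocytes held 328, 326, 335, 297, 416 and 335 CPM in proximal 1 and 2, distal 1 and 2, cecum and large intestine. Subepithelial fibroblasts held 23.4, 16.6, 26.9, 15.1, 188 and 143 CPM. The levels in trophocytes were alike in all libraries but the cecum, and those of subepithelial fibroblasts fell into a low group of 4 and a high pair. Subepithelial fibroblasts were 10.1-fold lower over 6 libraries (log2 -3.34 ± 0.58, adjusted p = 0.00260), and the gap was smaller in the large bowel by 2.90 ± 0.19 on the log2 scale (adjusted p = 4.77e-04). In the 4 small intestinal libraries alone it was -4.27 ± 0.12 (adjusted p = 2.67e-06). The free RNA held Hpgd at 142, 101, 185, 89.2, 240 and 135 CPM in the library order above. Subepithelial fibroblasts lay below it in all libraries but the large intestine, so these sizes depend on background. Over 16 alternatives the log2 change between the classes ran from -4.425 to -2.465. Its difference between the bowels ran from 1.823 to 4.14 over 14. Telocytes had 558, 551 and 152 CPM, the cecum and proximal 1 far above the large intestine, and did not pass the test against trophocytes (log2 -0.21 ± 0.38, adjusted p = 0.775), although they were lower under the stricter gate (-0.95, adjusted p = 0.0399). Universal fibroblasts had 81.9 to 413 CPM and were 1.71-fold below trophocytes (log2 -0.77 ± 0.20, adjusted p = 0.0218), a call that was lost without proximal replicate 1 (log2 -0.79, adjusted p = 0.0530) or distal replicate 2 (log2 -0.76, adjusted p = 0.0615).

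**Figure D2:**
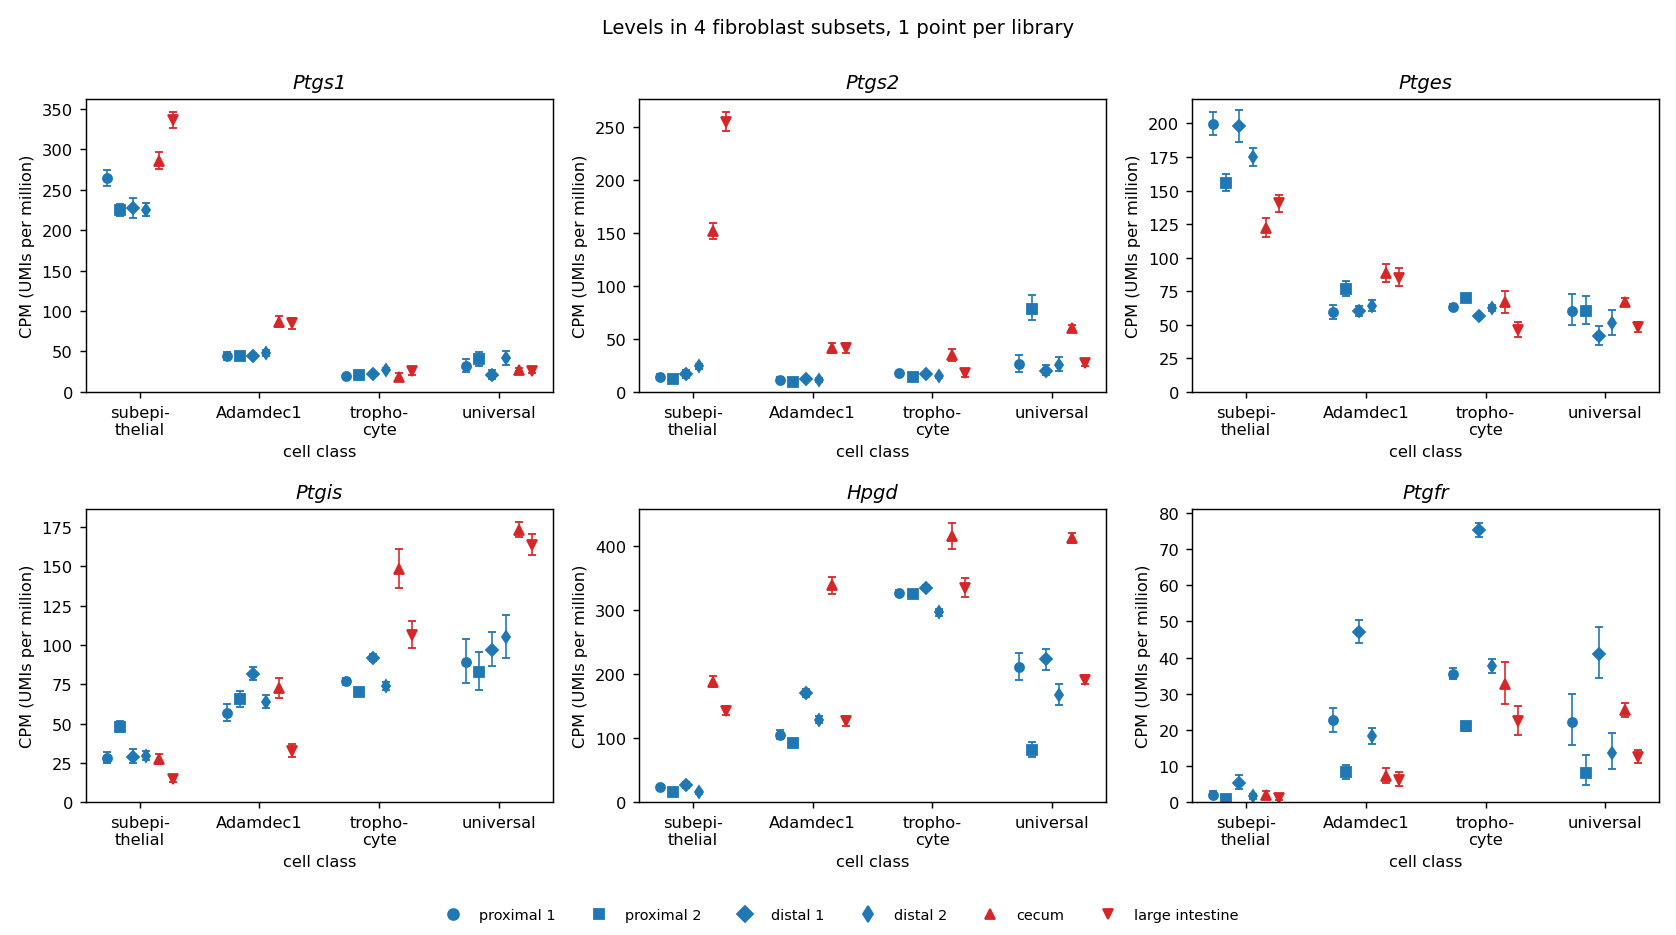
Levels in CPM (y axis, from 0) of 6 genes in subepithelial and Adamdec1 fibroblasts, trophocytes and universal fibroblasts (x axis; telocytes are not drawn), 1 point per library, with bars for the exact 95% Poisson interval, which covers counting error only. By the mean over libraries, and among these 4 subsets, Ptgs1 and Ptges are highest in subepithelial fibroblasts and Hpgd and Ptgfr in trophocytes, and the red large bowel points of subepithelial Ptgs2 (152 and 255 CPM) and Hpgd (188 and 143 CPM) lie apart from the blue small intestinal ones.

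Counted over the set, the fibroblast subsets differed in both directions. Of 9 genes tested in subepithelial fibroblasts against trophocytes 3 were higher (Ptgs1, Ptges and Ptger2) and 4 lower (Ptgis, Hpgd, Ptger3 and Ptgfr), where 50.6% of all genes tested were called, 24.8% higher and 25.9% lower. The call of Ptger3 (log2 -2.64 ± 0.57, adjusted p = 0.00678) was lost without the library block (-1.83, adjusted p = 0.218). Its levels were 0 to 4.85 CPM in subepithelial fibroblasts and 0.40 to 8.87 CPM in trophocytes, where the free RNA carried 2.63 to 8.87 CPM. In telocytes against trophocytes 3 of 8 were higher (Ptgs1, Ptgs2 and Ptger2) and 2 lower (Ptger4 and Ptgfr), where 19.2% of all genes were called, 8.06% higher and 11.1% lower. In universal fibroblasts against trophocytes 3 of 9 were higher (Ptgs1, Ptgs2 and Ptgis) and 3 lower (Hpgd, Ptger2 and Ptgfr), against 20.9% of all genes, 10.9% higher and 10% lower. The last comparison rested on small changes, of which 0 were called without the library block, and the increase in Ptgs1 (log2 0.47 ± 0.14, adjusted p = 0.0357) turned to -0.62 when cells took the class of their cluster. It was also lost without proximal replicate 1 (0.43), proximal replicate 2 (0.37), distal replicate 2 (0.45) or the cecum (0.44).

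The gate placed the same names on different clusters in the 2 bowels. Small intestinal subepithelial fibroblasts lay in clusters 8 (70.6%, led by Itga8) and 9 (26.3%), large bowel ones in clusters 4 (55.5%, led by Ccl8) and 5 (42.1%, led by Sox6 and named telocyte by its markers). Large bowel trophocytes lay mostly in cluster 3 (55.3%), which held the universal marker Anxa3 among its leading genes. By their leading genes these class names are therefore not the same cells in both bowels, and cluster levels are given beside them. Where a cluster was found in both bowels its own levels can be set side by side. In cluster 5 Ptgs2 was at 81.7 to 157 CPM in the 4 small intestinal libraries and at 175 and 262 CPM in the large bowel, and Hpgd at 394 to 797 and at 191 and 717 CPM. In clusters 8 and 9, which were found in the small intestine, Ptgs2 was at 11.04 to 26.4 and 2.36 to 14.0 CPM and Hpgd at 6.05 to 16.5 and 28.3 to 56.6 CPM. Cluster 4, found in the large bowel, held 61.0 and 86.0 CPM of Ptgs2 and 107 and 242 CPM of Hpgd. The difference of the bowels in subepithelial fibroblasts and these clusters cannot be told apart. Small intestinal trophocytes also spread, with 24.4% in cluster 13, 22.8% in 12 and 22.7% in 16. Cluster 16 held the Adamdec1 markers Edil3 and Vwc2 among its leading genes. In clusters 13, 12 and 16 the small intestinal libraries had Ptgs1 at 3.50 to 5.45, 3.92 to 6.25 and 41.8 to 45.1 CPM. Ptger2 was at 0.69 to 2.28, 0.94 to 2.13 and 21.7 to 23.9 CPM. Hpgd was at 425 to 461, 487 to 639 and 111 to 172 CPM. Trophocyte levels are averages over unlike clusters.

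Ptger2 (chr14:45225652-45241277, plus strand) encodes EP2, a receptor that raises cAMP. Its level in LECs was 56.6 and 50.03 CPM in the proximal libraries, 47.9 and 46.8 in the distal libraries, 9.02 (cecum) and 10.2 (large intestine). The 4 small intestinal libraries lay close together and the 2 large bowel libraries far below them. LECs of the large bowel held 5.26-fold less (log2 -2.40 ± 0.19, adjusted p = 7.15e-05), and by hashtag the values were 36.2 to 64.6 CPM in the small intestine and 2.32 to 16.6 in the large bowel. LECs of the large bowel were few, 226 and 258 cells, and their 34 Ptger2 UMIs set the precision. The share of LECs with a Ptger2 UMI was 22.6 to 28.4% in the small intestine and 4.42 and 6.59% in the large bowel, and 10.9 to 13.2% against 2.30 and 2.20% after thinning each cell to 2500 UMIs. In both bowels LECs fell into the same 2 clusters in like shares. Cluster 0 (54.3 and 49.6% of the LECs of small intestine and large bowel) held 53.9 to 60.2 CPM against 13.4 and 13.9, and cluster 1 held 40.3 to 53.6 against 2.60 and 6.63. Blood endothelial cells, the other endothelium, had 0 to 2.62 CPM, 29.9-fold below LECs (log2 -4.90 ± 0.26, adjusted p = 4.32e-07), with a UMI in 0 to 1.67% of cells. The free RNA carried Ptger2 at 13.3 to 27.6 CPM, more than the blood endothelial cells did, and at 13.3 (cecum) and 17.9 CPM (large intestine), more than the LECs of those libraries did. Over 15 alternatives the log2 change in LECs between the bowels ran from -2.62, with 10% free RNA subtracted, to -2.14, with an adjusted p of at most 0.00414.

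Among fibroblasts Ptger2 was at 65.7, 56.7, 58.4, 60.1, 37.2 and 41.4 CPM in the subepithelial class and at 7.72, 8.36, 10.4, 13.2, 2.09 and 5.86 in trophocytes, a 5.83-fold difference (log2 2.54 ± 0.19, adjusted p = 5.48e-05) that held in every library. Telocytes exceeded trophocytes 6.63-fold (log2 2.73 ± 0.30, adjusted p = 0.00263), and universal fibroblasts lay 2.04-fold below them (log2 -1.03 ± 0.23, adjusted p = 0.0116). In the small intestine the order of mean levels ran from subepithelial fibroblasts (60.2 ± 3.94 CPM, SD, n = 4) over LECs (50.3 ± 4.38, n = 4) and T cells or ILCs (34.1 ± 3.84, n = 4) to Adamdec1 fibroblasts (23.4 ± 0.868, n = 4), and the ranges of the first pair nearly touched (lowest 56.7, highest 56.6). The 1 telocyte library there, at 50.4 CPM, lay within the range of the LECs. In the large bowel, where T cells or ILCs were too few to measure, LECs lay below subepithelial fibroblasts, telocytes (34.1 and 35.1 CPM) and Adamdec1 fibroblasts. Fibroblasts as a whole, whose subsets are mixed differently in the 2 bowels, had Ptger2 at 15.9 to 24.8 CPM in the small intestine and 14.3 and 26.0 in the large bowel (log2 0.09 ± 0.23, adjusted p = 0.784). Within subsets the large bowel was lower without overlap in subepithelial fibroblasts and trophocytes (values above) and in cluster 5 (39.8 to 56.8 against 30.9 and 37.7 CPM), and higher without overlap in Adamdec1 fibroblasts (22.7 to 24.7 against 29.1 and 35.8 CPM). Adamdec1 fibroblasts too lay in different clusters, 98.2% in cluster 4 in the large bowel and 54.5% in cluster 16 in the small intestine, and these subset changes were not tested on their own. The difference between the regional changes of LECs and of all fibroblasts was -2.60 ± 0.32 on the log2 scale (adjusted p = 0.00239), a call lost without the large intestine (-2.20, adjusted p = 0.0748), where 9.68% of all genes tested were called. Gm17173 overlaps Ptger2 on the opposite strand and was the gene most like it across classes. Of the other genes of the set, Ptgs2 (Ptgs2os) and Ptger4 (Ttc33) also overlap a counted gene on the opposite strand, so their reads too could be shared if counting ignored strand.

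Ptger4 (chr15:5236142-5273673, minus strand) encodes EP4, the other cAMP-raising receptor, and had its highest levels in T cells or ILCs, with 192, 157, 68.4 and 138 CPM in proximal 1 and 2 and distal 1 and 2. Myeloid cells held 105 and 67.2 CPM. In fibroblasts it was at 47.3, 44.6, 41.2 and 43.2 CPM in the small intestine, 54.7 (cecum) and 62.9 (large intestine), and subepithelial fibroblasts (61.9 to 96.2 CPM) did not pass the test against trophocytes over 6 libraries (log2 0.31 ± 0.11, adjusted p = 0.0526). They did in the small intestinal libraries alone (0.40 ± 0.07, adjusted p = 0.00228) and without the large intestine (0.43, adjusted p = 0.00218). Telocytes were 1.95-fold lower than trophocytes (log2 -0.96 ± 0.23, adjusted p = 0.0368), which was lost in several alternatives, among them without the large intestine (-0.91, adjusted p = 0.196). Over 12 alternatives the log2 change ran from -1.29 to -0.81, with an adjusted p of up to 0.203. LECs held 2.35 to 4.44 CPM and blood endothelial cells 3.18 to 13.7, a 3.35-fold difference (log2 1.75 ± 0.31, adjusted p = 0.00109) at levels below the free RNA, at 30.8 to 53.8 CPM. Of the 6 genes tested between the 2 endothelia, 3 were higher in blood endothelial cells (Ptgs1, Ptger4 and Hpgd) and 2 lower (Ptger2 and Ptges), where 56.7% of all genes were called, 28.7% higher and 28% lower. The call of Hpgd (log2 1.29 ± 0.46, adjusted p = 0.0370) was lost without proximal replicate 2 (0.58, adjusted p = 0.136) or distal replicate 1 (1.40, adjusted p = 0.0639), and its levels too lay below the free RNA. Of the 12 immediate early and heat shock genes 8 were higher and 1 lower in blood endothelial cells, and their part in these results was not tested.

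**Figure D3:**
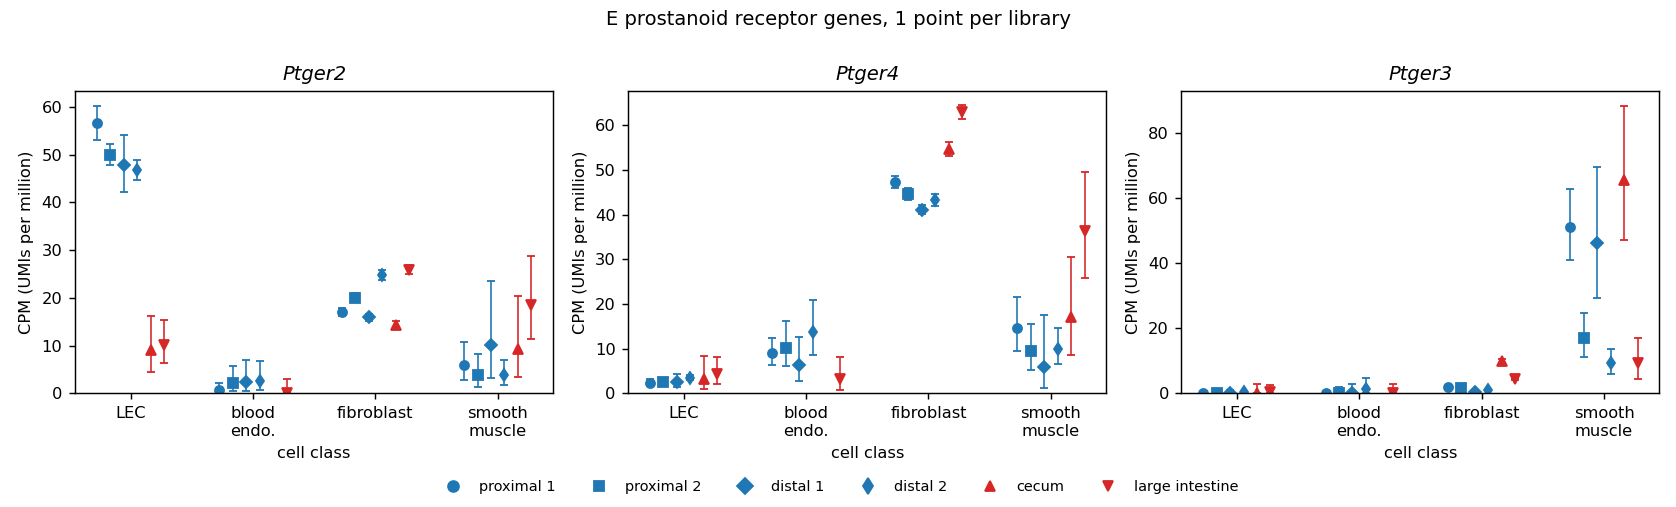
Levels in CPM (y axis, from 0) of the E prostanoid receptor genes Ptger2, Ptger4 and Ptger3 in 4 lineages (x axis), 1 point per library, with bars for the exact 95% Poisson interval (counting error only). Ptger2 in LECs falls into small intestinal libraries at 46.8 to 56.6 CPM and large bowel libraries at 9.02 and 10.2, and Ptger3 is highest in smooth muscle cells or myofibroblasts, where libraries range from 9.25 to 65.4.

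Ptger3 (chr3:157272492-157352099, plus strand), the gene of the cAMP-lowering receptor EP3, was highest in smooth muscle cells or myofibroblasts, at 51.0, 17.0, 46.3, 9.25, 65.4 and 9.31 CPM in the library order above. Replicate 1 of both small intestinal regions stood well above replicate 2, and all 6 libraries lay above the fibroblasts of the same library, at 1.95, 1.74, 0.56, 0.94, 9.95 and 4.396 CPM. The difference was 11.3-fold (log2 3.50 ± 0.52, adjusted p = 3.51e-04), with the fibroblasts below the free RNA of their library in all but the cecum. It was the 1 gene of 9 that was higher there, with 7 lower and Ptgs1 not past the test, where 39.1% of all genes were called, 16% higher and 23.1% lower. The drops there ranged from 2.79-fold for Ptgs2 to 26.6-fold for Ptgfr. Ptgfr was at 0 to 2.01 CPM in that class, below the free RNA (4.23 to 53.3 CPM), so its size depends on background. Over 16 alternatives its log2 change ran from -13.04 to -1.776. Pericytes, measured in distal 2 (76 cells) and the large intestine (152 cells), had 19.5 and 1.03 CPM of Ptger3 and no call (log2 1.73 ± 0.98, adjusted p = 0.249), and were lower in the other 8 of 9 genes tested, against 19.6% of all genes called, 7.65% higher and 11.9% lower. The 12 immediate early and heat shock genes were all higher in these pericytes, against 7.65% of all genes. Within the fibroblasts Ptger3 was high in the clusters with Ptn, at 25.2 to 30.3 CPM in cluster 7 and 7.35 and 39.2 CPM in cluster 6, and at 18.2 CPM in Adamdec1 fibroblasts of the cecum against 0.11 to 1.499 CPM in the other libraries.

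Ptgfr (chr3:151502139-151543267, minus strand), the gene of the receptor for prostaglandin F2α, was highest in trophocytes. Trophocytes held 35.6, 21.0, 75.3, 37.6, 32.6 and 22.4 CPM and subepithelial fibroblasts 2.08, 0.89, 5.21, 1.58, 1.96 and 1.10 CPM, a 22.1-fold difference (log2 -4.46 ± 0.11, adjusted p = 1.18e-06). In both classes distal 1 was the highest library and proximal 2 the lowest. The subepithelial levels lay below the free RNA of the same library throughout (4.23 to 53.3 CPM), so the size depends on background. That free RNA was also highest in distal 1 and, within the small intestine, lowest in proximal 2. Its part in the library order was not tested. Over 16 alternatives the log2 change between these classes ran from -6.755 to -3.72, with an adjusted p of at most 1.96e-04. Telocytes had 0, 0 and 0.29 CPM, below trophocytes in the fit (log2 -6.70 ± 0.42, adjusted p = 4.69e-04), a size that depends on the prior count where libraries are at 0. Universal fibroblasts were 1.79-fold lower (log2 -0.84 ± 0.13, adjusted p = 0.00208), a call lost when cells took the class of their cluster (-0.23, adjusted p = 0.374). In cluster 12, led by Alk and Brinp3, small intestinal libraries reached 31.6 to 121 CPM.

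Between the distal and the proximal small intestine, edgeR called 0 of 9 genes in fibroblasts, where 0.0105% of all genes tested were called (0.00523% higher and 0.00523% lower) and 666 of 19115 had an unadjusted p under 0.05. DESeq2 and limma-voom also called 0 of the 9. In LECs 0 of 8 were called, where 0% of all genes were called and 624 of 15570 had an unadjusted p under 0.05, and again 0 by DESeq2 and limma-voom. Ptgfr was nominally 2.16-fold higher in distal fibroblasts (27.1 and 13.9 against 61.3 and 23.5 CPM, log2 1.11 ± 0.57, adjusted p = 1). The regions overlapped, since proximal 1 exceeded distal 2, and within each replicate number the distal library was the higher. With the replicate number as a block Ptgfr passed in fibroblasts (log2 1.01 ± 0.16, adjusted p = 0.0356) and in LECs (1.76 ± 0.49, adjusted p = 0.0224). The LECs held at most 2.83 CPM of Ptgfr, below the free RNA, which was itself higher distally within each replicate number (16.6 and 53.3 CPM for replicate 1, 10.97 and 14.2 for replicate 2). No source says that the numbers mark shared animals or days. Ptger3 in fibroblasts was at 1.95 and 1.74 CPM proximally and 0.56 and 0.94 distally, without overlap (log2 -1.28 ± 0.30, adjusted p = 0.870). These levels lay below the free RNA of the same libraries, at 5.18 and 3.71 CPM proximally and 2.63 and 6.68 distally.

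Between the large bowel and the small intestine, 4 of 9 genes were higher in fibroblasts and 0 lower, where 30.5% of all genes were called, 16.1% higher and 14.5% lower. Ptgs2 rose from 16.5, 14.6, 15.7 and 15.5 CPM in the small intestine to 61.7 (cecum) and 93.6 (large intestine) (5.10-fold, log2 2.35 ± 0.15, adjusted p = 4.52e-04). Ptgs1 was at 54.6, 63.7, 37.7 and 67.0 against 82.0 and 141 CPM (2.07-fold, log2 1.05 ± 0.24, adjusted p = 0.0179), and the call was lost without the large intestine (0.67, adjusted p = 0.0880). By hashtag, Ptgs1 was at 70.8 to 86.2, 67.8 to 85.9, 35.3 to 51.9 and 71.3 to 87.0 CPM in the small intestine. The cecum (63.7 to 96.0 CPM) overlapped all of these but distal 1, and the large intestine (93.8 to 191 CPM) lay above them. In both proximal libraries and distal 2 each hashtag lay above the library value, which also counts cells without a single hashtag. Ptger3 rose 5.84-fold (log2 2.55 ± 0.51, adjusted p = 0.0126), lost without the cecum (1.79, adjusted p = 0.0693), and Ptger4 1.38-fold (log2 0.46 ± 0.10, adjusted p = 0.0148), lost without proximal replicate 2 (0.45, adjusted p = 0.0508). Fibroblast Ptger3 lay below the free RNA of its library (2.63 to 8.87 CPM) in all libraries but the cecum, so the size of its rise depends on background. Ptgfr was at 5.82 and 14.5 CPM in the large bowel against 13.9 to 61.3 (log2 -1.60 ± 0.68, adjusted p = 0.112). Among the 4 libraries that shared a hashtag set the call of Ptgs2 stood (2.25 ± 0.21, adjusted p = 0.00800), and those of Ptgs1 (adjusted p = 0.0514), Ptger3 (0.0735) and Ptger4 (0.136) did not.

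Fibroblasts of the 2 bowels filled different clusters, mainly 4, 3 and 5 in the large bowel and 16, 14 and 13 in the small intestine. The pericyte gene Rgs5 stood among the leading genes of cluster 16, in which 99.4% of the cells were gated as fibroblasts. In cluster 2 (universal fibroblasts) Ptgs2 was at 12.6 to 24.2 CPM in the small intestine and 11.9 and 12.8 in the large bowel, in cluster 3 at 89.1 and 210 in the 2 small intestinal libraries with enough cells and 32.9 and 58.9 in the large bowel, and in cluster 5 higher in the large bowel, as given above. Ptger4 was at 14.8 to 33.1 against 42.2 and 44.5 CPM in cluster 5, at 46.4 to 63.7 against 41.0 and 78.6 in cluster 2 and at 133 and 164 against 46.8 and 72.2 in cluster 3. Ptgs1 overlapped between the bowels in clusters 2, 3 and 5. In cluster 12, where 1 large bowel library had enough cells, Ptgs1 was at 3.92 to 6.25 CPM in the small intestine and 20.8 in the large bowel, Ptger4 at 20.7 to 34.3 and 58.9, and Ptgs2 at 4.20 to 9.15 and 2.49. In cluster 19, of which 56.1% of the cells were gated as fibroblasts and which epithelial genes such as Muc2 and Krt8 lead, Ptgs2 was at 8.48 to 16.7 CPM in 3 small intestinal libraries and 36.0 and 68.7 in the large bowel. The higher level of Ptgs2 and Ptger4 in large bowel fibroblasts was not seen in every cluster. The summed immediate early and heat shock genes stood at 6228 to 9547 CPM in small intestinal fibroblasts, at 23388 in the cecum and at 7685 in the large intestine. In large bowel against small intestinal fibroblasts 4 of the 12 were higher and 0 lower, where 16.1% of all genes were higher, and their part in the Ptgs2 result was not tested.

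**Figure D4:**
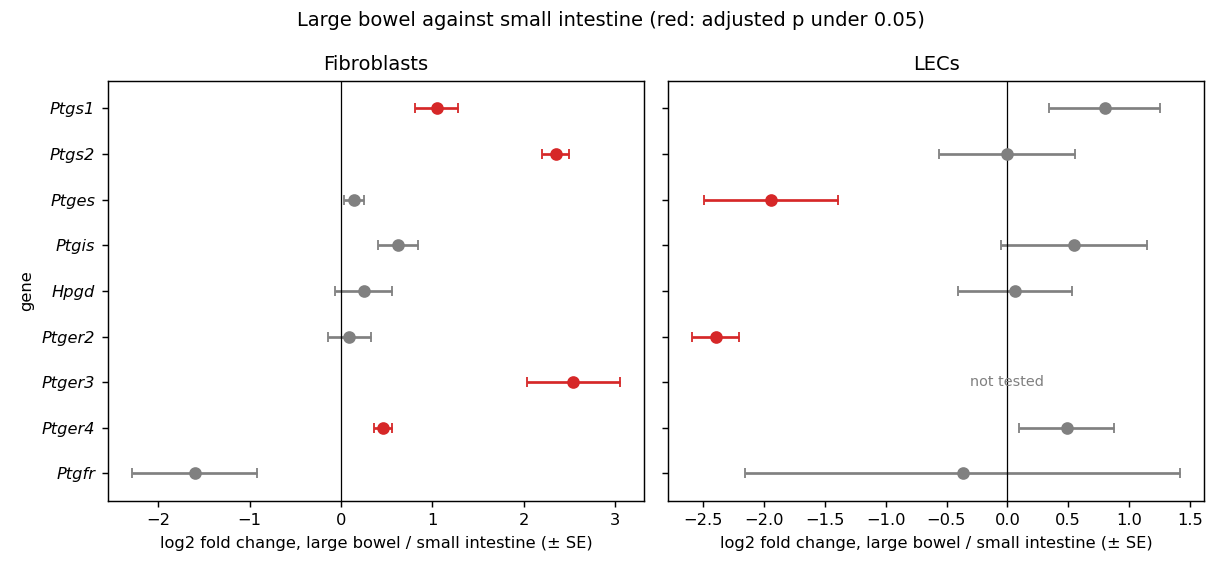
Log2 fold change between large bowel (2 libraries) and small intestine (4 libraries) with its SE (x axis) for each gene (y axis), in fibroblasts on the left and LECs on the right; red marks an adjusted p under 0.05. Ptgs2 in fibroblasts lies at 2.35 and Ptger2 in LECs at -2.40, and the same genes lie at 0.00 in LECs and 0.09 in fibroblasts.

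In LECs 2 of 8 genes were lower in the large bowel and 0 higher, where 20.4% of all genes were called, 9.71% higher and 10.7% lower. Ptger2, described above, kept its call in each alternative run. Ptges fell 3.85-fold (log2 -1.94 ± 0.55, adjusted p = 0.0351), on 11 UMIs in the large bowel, and lost the call without the cecum (-1.82, adjusted p = 0.157), without the large intestine (-2.32, adjusted p = 0.181) and with limma-voom (-1.85, adjusted p = 0.192). Ptgs2 in LECs gave no call between the bowels (log2 change of 0.00 ± 0.56, adjusted p = 0.999), with an error too wide to show that it was the same. Over the alternatives the change ran from -8.80 with free RNA subtracted (adjusted p = 0.0672) to 0.87 with doublets kept (adjusted p = 0.161), and 0 of 15 called it. The test of the difference between LECs and fibroblasts called Ptgs2 (-2.45 ± 0.46, adjusted p = 0.0139), Ptges (-2.05 ± 0.53, adjusted p = 0.0455) and Ptger2, so 3 of 9 lower and 0 higher, where 3.49% of all genes tested were called higher and 6.18% lower. The calls of Ptgs2 and Ptges were lost without the cecum (-2.13, adjusted p = 0.0664 and -1.85, adjusted p = 0.207) or without the large intestine (-3.74, adjusted p = 0.0912 and -2.48, adjusted p = 0.260). In subepithelial fibroblasts against trophocytes, the difference of the bowels called 3 of 9 genes, Ptgs2 and Hpgd upwards and Ptgis downwards (-1.34 ± 0.31, adjusted p = 0.0319), where 13.5% of all genes were called, 8.22% higher and 5.3% lower. Leaving out the cecum (-1.51, adjusted p = 0.0682), the large intestine (-1.19, adjusted p = 0.147), proximal replicate 1 (-1.41, adjusted p = 0.0626) or distal replicate 2 (-1.39, adjusted p = 0.0662) ended the call of Ptgis.

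Of 30 other genes of the eicosanoid pathway, 22 were tested between LECs and fibroblasts, with 9 higher and 11 lower in LECs, where 31.9% of all genes were higher and 35.9% lower. Higher were Ltc4s, the leukotriene C4 synthase (log2 6.94 ± 0.40, adjusted p = 1.32e-06), with 216 to 321 CPM in small intestinal LECs, 49.2 and 90.6 in the large bowel and 0.8 to 3.4 in fibroblasts, Alox5ap (3.40 ± 0.41), Mgll, which frees arachidonic acid from monoacylglycerols (2.35 ± 0.15), and the prostaglandin exporter Abcc4 (1.89 ± 0.45). Lower were the phospholipases Pla2g2e (-5.59 ± 0.28) and Pla2g4a (-5.04 ± 0.24), the reductase Ptgr1 (-4.61 ± 0.12) and the prostacyclin receptor Ptgir (-4.29 ± 0.34). Alox5ap in LECs lay at 0 to 2.8 CPM. In LECs of the large bowel 3 of 18 were higher and 2 lower (9.71 and 10.7% of all genes), the latter Ltc4s (-1.83 ± 0.25, adjusted p = 0.00131) and Abcc4 (-1.63 ± 0.18, adjusted p = 4.70e-04), so that both fell in the same libraries as Ptger2. Blood endothelial cells against LECs gave 7 of 14 higher and 3 lower (28.7 and 28% of all genes). The uptake transporter Slco2a1 had 736 to 1049 CPM in blood endothelial cells and 3.2 to 6.2 in LECs (log2 8.03 ± 0.18, adjusted p = 3.03e-09), and Alox12 rose by 7.54 ± 0.26.

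Across the fibroblasts the same list gave 5 of 19 higher and 6 lower in subepithelial fibroblasts against trophocytes, where 50.6% of all genes were called, so the share called was near that of all genes. Pla2g4a, the phospholipase that releases arachidonic acid, was at 570 to 842 CPM against 80.3 to 188 (log2 2.19 ± 0.23, adjusted p = 2.39e-04), Slco2a1 at 44.2 to 63.2 CPM in the small intestine and 19.2 and 7.1 in the large bowel against 1.6 to 5.2 in trophocytes (3.74 ± 0.49), while Pla2g2e (-4.52 ± 0.47) and Ptgir (-3.81 ± 0.26) were lower. Telocytes against trophocytes gave 3 of 17 higher, Tbxas1 (2.88 ± 0.34), Abcc4 (2.84 ± 0.18) and Pla2g4a (2.5 ± 0.28), and 3 lower (8.06 and 11.1% of all genes). Universal fibroblasts gave 3 of 19 higher and 1 lower (10.9 and 10% of all genes), and pericytes 2 of 23 higher and 7 lower (7.65 and 11.9%). Smooth muscle cells or myofibroblasts gave 5 of 21 higher, among them Slco2a1 and Ptgir, and 5 lower (16 and 23.1%). Between the small intestinal regions 0 of 24 were called in fibroblasts and 0 of 19 in LECs. Large bowel fibroblasts gave 7 of 25 higher and 1 lower (16.1 and 14.5% of all genes), with the largest change in Tbxas1, the thromboxane synthase (3.51 ± 0.58, adjusted p = 0.00693), at 4.2 CPM (cecum), 27.4 (large intestine) and 1.1 to 1.6 in the small intestine. The hematopoietic prostaglandin D2 synthase Hpgds was found in myeloid cells, at 316 and 304 CPM in the 2 libraries measured and at most 4.0 CPM in the stromal and endothelial classes, and Tbxas1 there reached 493 and 345 CPM.

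Likeness to other genes was measured as Pearson's r of log2(CPM + 1) over 64 library and class sums in 14 classes, which share libraries and depth and are not independent, so it is given without a test. Ptgs1 was most like Smad6 (r = 0.858), Hrh1 and Nkx2-3, Ptgs2 like Itm2c (0.788), Pla2g4a (0.770) and Adam19, and Ptges like B3gnt9 (0.902), Msc and Negr1. Ptgis was most like Bnc2 (0.962), Ssc5d and the collagen gene Col1a2, and Hpgd like the fibroblast genes Pdgfra (0.876), Lum and Col1a1. Ptger2 was most like its antisense neighbour Gm17173 (0.883), then Mapkap1 and Slc9a9. Ptger3 was most like Slc8a2 (0.796), Wscd2 and Dmpk, Ptger4 like Bri3bp (0.822), Serpina3g and Frrs1, and Ptgfr like C3 (0.918), Gm11309 and Pla2g2e (0.903). The fibroblast gate used Pdgfra, Lum, Col1a1 and Col1a2.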

How the data were processed

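The authors aligned reads with Cell Ranger (8.1.0 in the submitters' notes) to mm39 plus tdTomato and deposited raw UMI counts of all barcodes, before removing doublets or ambient RNA. The study's stated limits on cells were applied (1000 to 7500 detected genes, 2500 to 40000 UMIs, mitochondrial share below 10%), and Scrublet in scanpy 1.11.5 removed 4.91 to 11.4% of them, which included 30.6 to 41.6% of the cells with several hashtags. The study's removal of clusters with few tdTomato+ cells was not applied. A cell took the lineage whose marker list it detected most, with at least 3 markers and a lead over 0.2 of the list (fibroblast markers needed 3 UMIs), and fibroblasts took a subset with a lead over 0.1. The gate's thresholds were set after the data had been seen, and the 10 genes, the lists and the markers were chosen with earlier results of these data known. Leiden clusters (28, resolution 1.0) were built without the 10 genes and the lists and are described without tests.

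UMIs were summed per library and class (at least 50 cells) and tested over all genes with edgeR 4.0.16 (quasi-likelihood, TMM, filterByExpr, Benjamini-Hochberg 0.05), with library as a block between classes and none between regions. SE is the log2 fold change over the square root of F. The named genes are the 10, up to 4 other pathway genes with the largest called change per comparison and any that a result of the 10 sits beside, and the 3 most alike genes. The tests were tried on simulated data. Alternatives were DESeq2 1.42.0, limma-voom 3.58.1, no low-count filter, left-out libraries, the block removed or added, a stricter gate, cluster classes, looser cell limits, doublets kept, 10% free RNA subtracted, 1 hashtag set and, added after seeing the data, the small intestine alone. Depth was 92430423 to 164336466 UMIs in kept cells per library.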

Additional observations from a re-analysis of the deposited data

Results flagged for a closer look

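Among the 4 small intestinal libraries, 56 groups of values were examined for a library far from the other 3, of which chance marks about 1 in 20. Of these 5 stood out. Ptgs1 in subepithelial fibroblasts was at 264.5 CPM in proximal 1 against 225.3 to 227.2 in the others, and in Adamdec1 fibroblasts at 48.05 CPM in distal 2 against 43.95 to 44.48. Both gaps are small beside the differences between classes. In proximal 2, Ptgis in subepithelial fibroblasts was at 47.80 CPM against 28.32 to 29.44, Ptgs2 in universal fibroblasts at 78.71 CPM against 20.08 to 25.94, and Ptgs2 in blood endothelial cells at 8.54 CPM against 0 to 1.45. The cause was not tested.

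The regional change differed between classes in 6 results on 5 genes by an interaction term in edgeR. For LECs against fibroblasts, the log2 difference of large bowel and small intestine was -2.45 for Ptgs2, -2.05 for Ptges and -2.60 for Ptger2. For subepithelial fibroblasts against trophocytes it was 3.02 for Ptgs2, 2.90 for Hpgd and -1.34 for Ptgis. All 6 rest on fibroblast class names that cover different clusters in the 2 bowels.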

How the results depend on the processing

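Of 183 counts of called genes under the alternatives, 165 stayed within 1.5 times the value reported, and of the 59 called differences of the set 20 lost their call in at least 1 alternative. The cause was not tested. In blood endothelial cells against LECs the count of 5 became 3 under the stricter gate and 2 with free RNA subtracted, and 2 to 5 with a library left out (2 without proximal replicate 1). Hpgd lost its call in a test with DESeq2, under the stricter gate and without proximal replicate 2 or distal replicate 1. The other losses were genes left untested, Ptges in the settings with counts of 2 or 3 and Hpgd and Ptger4 with free RNA subtracted or without proximal replicate 1. Pericytes gave 5 in place of 8 without the library block, and neither left-out libraries nor the stricter gate gave a value. Telocytes against trophocytes gave 8 in place of 5 under the stricter gate. Universal fibroblasts gave 0 in place of 6 without the library block and 3 to 6 with a library left out (3 without distal replicate 2), and Ptgs1 there reversed to -0.62 with cluster classes. Large bowel fibroblasts gave 1 in place of 4 in libraries of 1 hashtag set. Large bowel LECs gave 1 in place of 2 with limma-voom, cluster classes, free RNA subtracted or 1 hashtag set, and 1 to 2 with a library left out (1 without the cecum or the large intestine). The difference of the LEC and fibroblast contrasts gave 0 to 3 with a library left out, with 1 without the cecum and 0 without the large intestine.

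For the replicate block, samples with the same number deviated together (correlation 0.343 in fibroblasts and 0.201 in LECs), but with 2 pairs and no source for the pairing the numbers were not taken to pair the libraries. The block gave 1 call in fibroblasts and 1 in LECs, both Ptgfr, in place of 0. The LECs of the large bowel and the 2 pericyte libraries limit what could be detected there.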

Other observations

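A cluster of small intestinal fibroblasts led by the chemokines Cxcl10, Cxcl5 and Ccl2 (cluster 11, 595 cells) held 58.1 ± 16.5 CPM of Ptgs2 and 105 ± 23.7 CPM of Ptges (SD, n = 4 libraries). In clusters 14 and 16, which hold many of the other small intestinal fibroblasts, Ptgs2 was at 5.98 ± 2.09 and 5.30 ± 1.79 CPM and Ptges at 67.2 ± 6.30 and 61.0 ± 4.42 CPM. Other clusters of small intestinal fibroblasts lay below, between or above these levels. Cluster 7 was the lowest of those given here, at 1.26 ± 1.49 CPM of Ptgs2 and 8.94 ± 4.93 CPM of Ptges. Ptgs2 was at 38.8 ± 6.39 CPM in cluster 15 and 30.7 ± 3.28 CPM in cluster 13, and in small intestinal libraries at 89.1 and 210 CPM in cluster 3 and at 81.7 to 157 CPM in cluster 5. Ptges was at 210 ± 13.5 CPM in cluster 8 and 94.8 ± 7.14 CPM in cluster 9. Hpgd was at 101 ± 17.1 CPM in cluster 11, at 529 ± 87.6 CPM in cluster 12 (n = 5) and at 147 ± 29.0 and 139 ± 31.0 CPM in clusters 14 and 16. The clusters were formed from these cells, so these values are a description without a test.

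Cluster 7, led by Scg2 and Ptn, had 385 ± 49.7 CPM of Ptgis and 28.2 ± 2.22 CPM of Ptger3 but 8.94 ± 4.93 CPM of Ptges and 6.40 ± 1.98 CPM of Ptgs1 (n = 4). Ptger4 in B or plasma cells was at 5.76 to 10.2 CPM in the small intestine and at 80.1 CPM in the large intestine, and the part of the make-up of the class was not tested. Plasma cluster 25 (Igkc, Jchain; Ptger4 at 6.39 to 14.7 CPM) had enough cells in small intestinal libraries, and B cell cluster 27 (Bank1, Pax5) had 26.8 to 56.8 CPM there and 77.1 CPM in the 1 large bowel library.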
